A study of Mus musculus with 24 samples.

Results

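The GABAergic interneuron markers described here are 10 genes, Gad1, Gad2, Pvalb, Sst, Vip, Npy, Cck, Calb2, Reln and Lhx6. They were chosen by symbol as genes that mark inhibitory interneurons or their subtypes, and all 10 were found by Ensembl identifier among the 55385 genes counted. Each was measured by RNA-Seq in the hippocampus (HIP) and the entorhinal cortex (EC) of 6 Ts65Dn mice and 6 wild-type (wt) littermates, which gave 24 libraries in 4 groups of 6, with both regions taken from every mouse. Ts65Dn mice carry a freely segregating minichromosome with an extra copy of the distal part of mouse chromosome 16 (Mmu16) and of a proximal piece of Mmu17, and they are a model of Down syndrome. All animals were males of 5 to 6 months on the mixed B6C3B background, and the controls were disomic littermates without the minichromosome. The series asks how gene expression in each region differs between the genotypes. For these markers, that gives Ts65Dn against wt within a region, HIP against EC within a genotype, and whether the genotype difference itself differs between regions.

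Cortical and hippocampal interneurons release GABA, the main inhibitory transmitter of the brain, and they are sorted into subtypes by the peptides and calcium-binding proteins they make. GABA is made from glutamate by the decarboxylases GAD67 and GAD65, encoded by Gad1 and Gad2. Most parvalbumin and somatostatin interneurons arise in the medial ganglionic eminence, where the transcription factor Lhx6 directs their fate, while many Vip, Cck, Calb2 and Reln cells arise in the caudal ganglionic eminence. None of the markers except Gad1 and Gad2 covers all interneurons. Cck is also made by excitatory neurons, Reln is also made by layer 2 cells of the EC and by Cajal-Retzius cells, and Calb2 is also made by mossy cells of the dentate gyrus, by Cajal-Retzius cells and in parts of the thalamus. In bulk tissue, fewer cells of a type and less RNA per cell cannot be told apart.

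The libraries held 23128589 to 40476492 counts. Levels are given as CPM, counts scaled to library size by TMM, a trimmed mean that corrects for RNA composition, over the 24 libraries. All 10 markers passed the filter on low counts in each region. Genotype labels were checked on 26 Mmu16 genes of the triplicated segment, whose median level relative to the wt mean was 0.979 to 1.02 in the wt libraries, 1.499 to 1.527 in 5 of 6 Ts65Dn libraries from the HIP, and 1.48 to 1.55 in 5 of 6 from the EC. By contrast, the library labelled Ts65Dn replicate 3 stood at the wt level, with 1.01 for its HIP and 0.968 for its EC, so these genes go against its label. It was kept in its group, and further values are given without it. Of these 26 genes, 23 were called higher in Ts65Dn in the HIP, led by Sod1, Itsn1, Usp16 and Gart, and 20 in the EC, led by Rcan1, Sod1, Atp5o and Itsn1. A gene was called when edgeR's quasi-likelihood test gave a Benjamini-Hochberg adjusted p-value under 0.05 over all genes tested in that comparison.

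More of the markers were called between brain regions than between genotypes, as held for all genes. Between regions, 10603 of the 18109 genes tested were called in wt and 10234 in Ts65Dn. In wt mice, 6 of the 10 were lower in the HIP than in the EC, namely Vip, Reln, Npy, Cck, Lhx6 and Sst, against 28.3% of the 18109 genes tested, and Calb2 was higher, against 30.3% of genes. The same 6 genes were lower in the HIP of Ts65Dn mice, against 27.0% of genes, and 0 of the 10 were higher, against 29.5%. Between genotypes, edgeR called 0 of the 10 markers in the HIP, against 1.04% of 17355 genes, and 0 of the 10 in the EC, against 2.50% of 17049 genes. At an unadjusted p under 0.05 the counts were 0 in the HIP, against 14.8% of all genes, and 1, Sst, in the EC, against 19.0%. DESeq2 called 0 in the HIP and 1, again Sst, in the EC. Without the library labelled Ts65Dn replicate 3, edgeR called 0 of the 10 in either region. The wt and Ts65Dn libraries overlapped for all 10 markers in both regions, whereas 1.67% of the HIP genes and 2.46% of the EC genes showed no overlap.

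**Figure D1:**
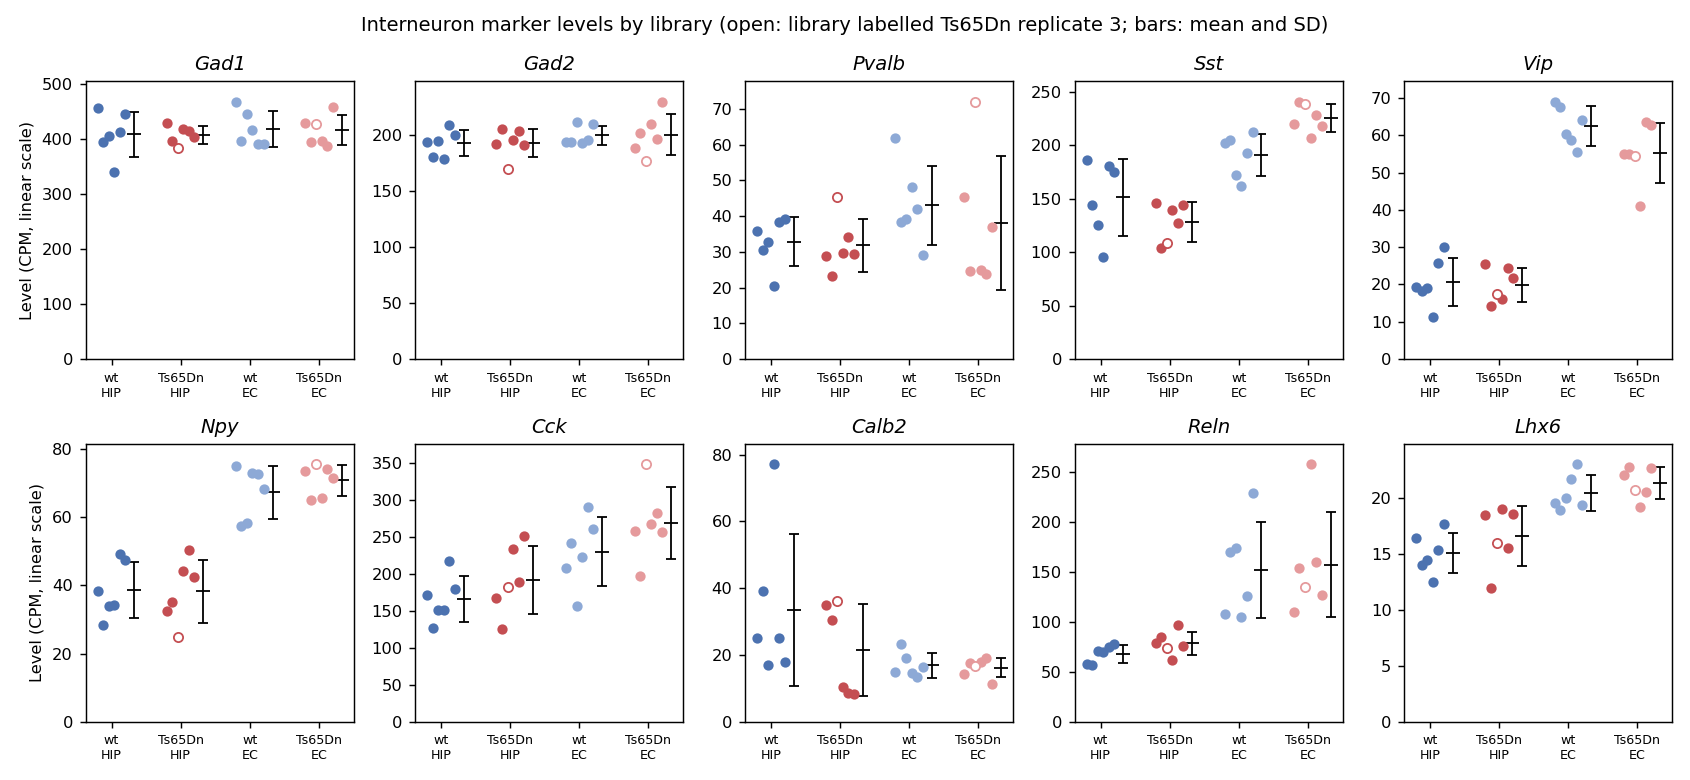
Level in CPM (linear axes from 0) of the 10 markers in each library, in 4 groups of 6 libraries. Filled points are libraries, open points are the library labelled Ts65Dn replicate 3, and bars show the group mean and SD. Vip, Npy, Reln and Lhx6 lay lower in every HIP library than in every EC library of wt mice, while Gad1 and Gad2 lay at one level in all 4 groups.

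Gad1 (ENSMUSG00000070880, chr2:70553072-70602014, plus strand, GRCm38), which encodes GAD67, was near one level in all 4 groups. It spanned 340.7 to 455.7 CPM (median 408.4) in the wt HIP, 383.1 to 429.3 (median 409.3) in the Ts65Dn HIP, 389.9 to 467.7 (median 406.9) in the wt EC and 387.9 to 458.2 (median 411.5) in the Ts65Dn EC. All 4 ranges overlapped. The log2 fold change of Ts65Dn over wt was -0.01 in the HIP (SE 0.06, 95% interval -0.14 to 0.13) and -0.02 in the EC (SE 0.06, interval -0.14 to 0.10). As folds these intervals run between 0.907 and 1.09 for the HIP and between 0.908 and 1.07 for the EC. HIP over EC gave -0.03 in wt (SE 0.06) and -0.03 in Ts65Dn (SE 0.06), also not called.

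Gad2 (ENSMUSG00000026787, chr2:22622205-22693874, plus strand), which encodes GAD65, the form held at synaptic terminals, gave the same picture at a lower level. Its medians were 194.5 CPM in the wt HIP, 194.1 in the Ts65Dn HIP, 194.7 in the wt EC and 198.8 in the Ts65Dn EC, and the single libraries spread over 169.9 to 229.8. The lowest HIP and the lowest EC value both came from the library labelled Ts65Dn replicate 3 (169.9 and 176.8 CPM). Ts65Dn over wt was -0.00 in the HIP (SE 0.05, 95% interval -0.12 to 0.11) and -0.00 in the EC (SE 0.06, interval -0.13 to 0.12), and without that library 0.03 in both regions.

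The other genes of GABA handling were read from a list of 9 that cover vesicle loading, uptake, breakdown and precursor supply. Between genotypes, 0 of the 9 were called in either region, and the median log2 fold change was 0.07 (HIP) and -0.06 (EC), against 0.00 over all genes tested in each. At an unadjusted p under 0.05 the counts were 0 in the HIP and 3 in the EC, where 14.8% and 19.0% of all genes reached it. Between regions, 5 of the 9 were lower in the wt HIP, against 28.3% of genes, and 0 higher, against 30.3% (median -0.20, all genes 0.01). Among the called genes the largest fall was in Slc32a1, the vesicular GABA transporter, at -0.41 (SE 0.06, edgeR adjusted p = 2.04e-05). Slc32a1 was lower in the HIP while Gad1 and Gad2 were not called. In Ts65Dn mice 5 of the 9 were lower in the HIP and 1 higher, against 27.0% and 29.5% of genes.

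**Figure D2:**
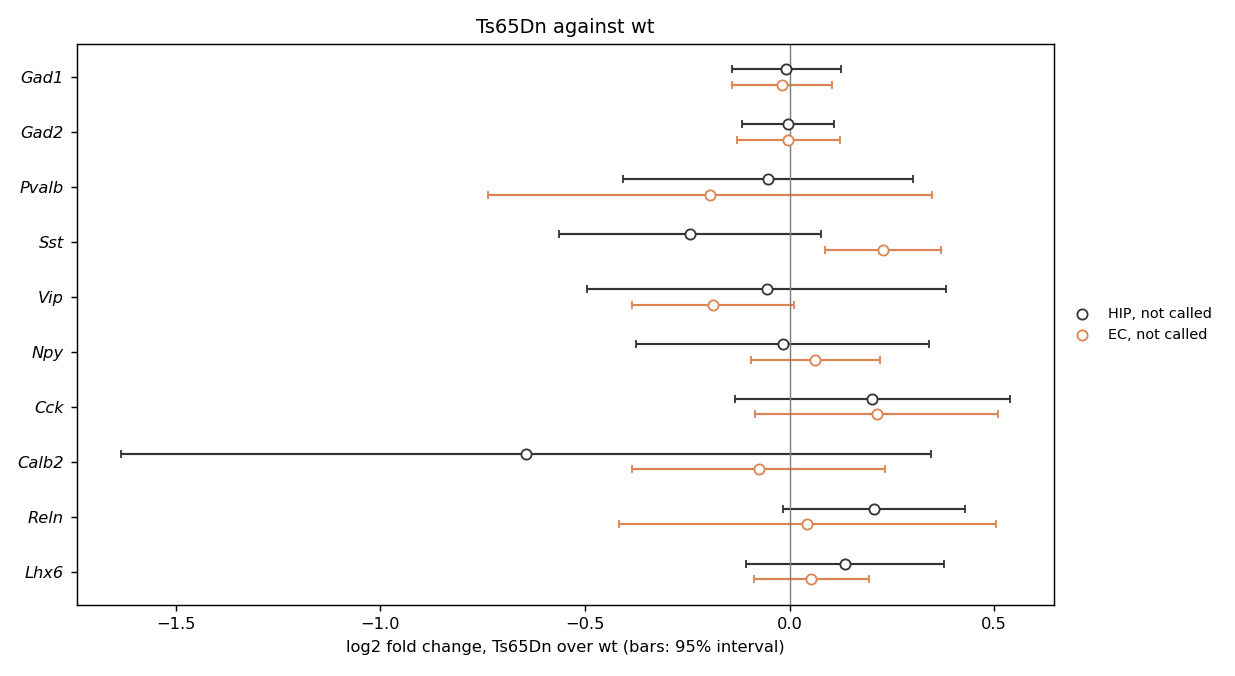
Log2 fold change of Ts65Dn over wt for the 10 markers in the HIP (black) and the EC (orange), 6 against 6 libraries each, with 95% intervals from edgeR as bars. All points are open because none of the markers was called, and the widest interval is that of Calb2 in the HIP, from -1.63 to 0.35.

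Sst (ENSMUSG00000004366, chr16:23889573-23890958, minus strand), the gene of the peptide somatostatin, was the marker nearest to a genotype call. It lies on Mmu16 but outside the segment that Ts65Dn mice carry in extra copy. In the EC it spanned 162.0 to 212.3 CPM (median 197.3) in wt and 206.8 to 241.0 (median 224.1) in Ts65Dn. The groups overlapped only through the highest wt and the lowest Ts65Dn library. The log2 fold change was 0.23 (SE 0.07, 95% interval 0.09 to 0.37), which did not pass in edgeR (adjusted p = 0.0804) and passed in DESeq2 (adjusted p = 0.0234). Without the library labelled Ts65Dn replicate 3 it was 0.21 (edgeR adjusted p = 0.113).

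In the HIP, Sst spanned 95.1 to 186.1 CPM (median 159.8) in wt and 103.7 to 145.7 (median 133.6) in Ts65Dn, so the Ts65Dn libraries lay within the wt range. The log2 fold change was -0.24 (SE 0.15, 95% interval -0.56 to 0.08; edgeR adjusted p = 0.486), of opposite sign to the EC. The difference of the genotype effects, HIP minus EC, was -0.46 for Sst (SE 0.14, unadjusted p = 0.00407) and was not called (edgeR adjusted p = 0.9998). Over all genes, edgeR called 0 of 18109 for this difference (0%), DESeq2 called 0, and 742 genes (4.10%) had an unadjusted p under 0.05. With no filter on low counts the Sst difference was called (edgeR adjusted p = 0.00485).

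Within each mouse, the HIP level of Sst was 0.587 to 0.941 of the EC level in wt (median 0.778) and 0.431 to 0.676 in Ts65Dn (median 0.611). It was below 1 in all 12 mice. HIP against EC gave -0.37 in wt (SE 0.10, edgeR adjusted p = 0.00369) and -0.82 in Ts65Dn (SE 0.10, edgeR adjusted p = 2.83e-06). The HIP and EC ranges overlapped in wt and did not in Ts65Dn, one of 5 markers without overlap there, against 13.1% of genes with every HIP library below every EC library.

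**Figure D3:**
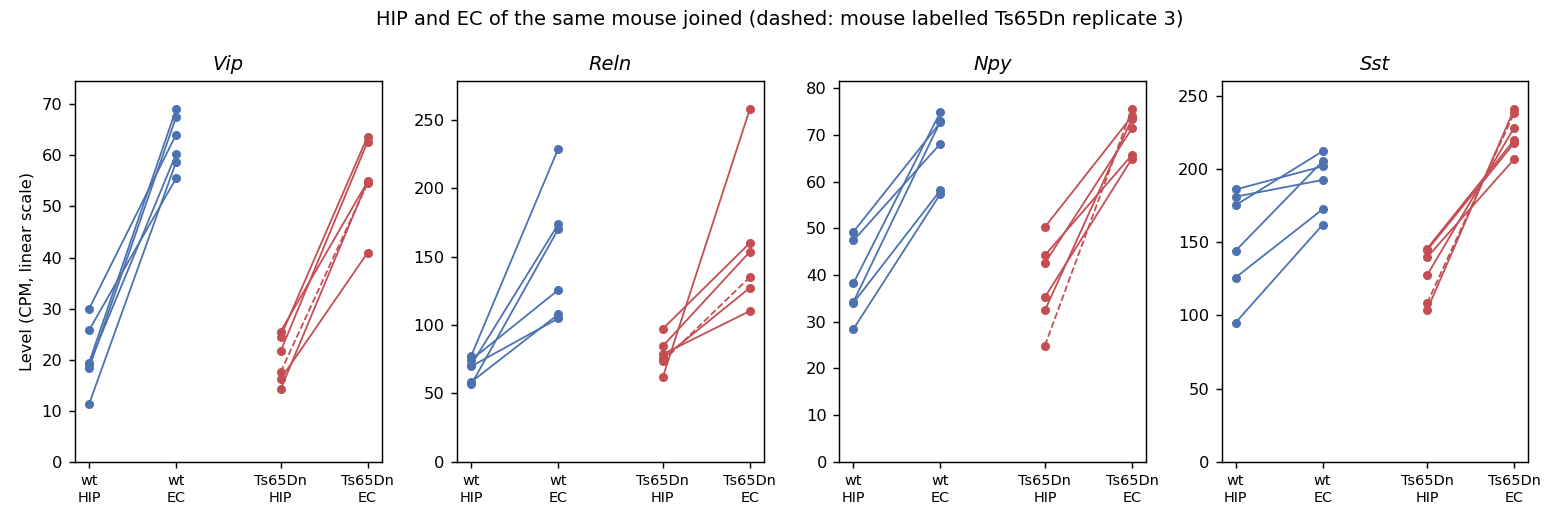
Level in CPM (linear axes from 0) of Vip, Reln, Npy and Sst, with the HIP and the EC of each mouse joined by a line, 6 wt mice in blue and 6 Ts65Dn mice in red. The dashed line is the mouse labelled Ts65Dn replicate 3, and every line rises from the HIP to the EC.

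Of the 10 markers, 4 encode neuropeptides (Sst, Vip, Npy and Cck), and all 4 were lower in the HIP in both genotypes. Their upstream sequences are shown because somatostatin and Vip are textbook targets of CREB, the cAMP-responsive factor that binds the cAMP response element. RefSeq promoters (GRCm38) matched 9 of the 10 markers, all but Calb2. Capitals mark TGACG, the core of that element, on either strand, and TATAAA on the gene's strand, and positions count from the RefSeq start. The first line is a 30-base window around the element of Sst at chr16:23890874-23890903, minus strand, and the others are the 250 bases before the start of Vip at chr10:5638968-5639217, plus strand, of Cck at chr9:121495695-121495944, minus strand, and of Npy at chr6:49822460-49822709, plus strand.
Sst: gcctccttggcTGACGTCAgagagagagtt
Vip: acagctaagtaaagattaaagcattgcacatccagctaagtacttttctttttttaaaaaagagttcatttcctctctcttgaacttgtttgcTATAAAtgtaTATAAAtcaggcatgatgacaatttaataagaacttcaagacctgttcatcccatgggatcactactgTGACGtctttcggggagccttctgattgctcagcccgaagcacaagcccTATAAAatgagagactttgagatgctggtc
Cck: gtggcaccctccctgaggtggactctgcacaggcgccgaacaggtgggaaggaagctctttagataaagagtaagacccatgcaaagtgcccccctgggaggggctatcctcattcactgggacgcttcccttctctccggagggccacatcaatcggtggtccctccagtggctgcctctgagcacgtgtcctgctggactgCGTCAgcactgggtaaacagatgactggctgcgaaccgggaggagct
Npy: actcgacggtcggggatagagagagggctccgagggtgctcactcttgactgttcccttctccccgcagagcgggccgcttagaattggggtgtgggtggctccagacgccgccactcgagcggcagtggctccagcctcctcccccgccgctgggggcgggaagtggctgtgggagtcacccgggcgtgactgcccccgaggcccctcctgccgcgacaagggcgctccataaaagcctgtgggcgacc

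The full palindrome TGACGTCA began 48 bases before the Sst start, and it stood in 1.55% of the 32851 mouse promoters of the same length and in 1 of the 9 markers. TGACG on either strand, which the palindrome contains, stood in 17.8% of promoters and in 4 of the 9 markers, Gad2, Sst, Vip and Cck. It began 79 bases before the start in Vip and, on the opposite strand, 47 bases before it in Cck and 33 bases before it in Gad2. The gene positions given above come from GENCODE, which starts Sst 114 and Gad2 122 bases further upstream than RefSeq. The Sst and Gad2 matches therefore lie inside those gene spans. TATAAA stood in 7.59% of promoters and in 1 of the 9, Vip, where it occurred 30, 147 and 157 bases before the start. These are matches of letters and no measurement of binding.

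Vip (ENSMUSG00000019772, chr10:5639218-5647617, plus strand), the gene of vasoactive intestinal peptide, had the largest difference between regions of the 10. In wt it spanned 11.3 to 29.9 CPM (median 19.3) in the HIP and 55.5 to 69.0 (median 62.2) in the EC. In Ts65Dn the ranges were 14.2 to 25.5 (median 19.6) and 40.9 to 63.7 (median 54.9). No HIP library reached any EC library of its genotype. HIP over EC was -1.65 in wt (SE 0.14, 0.319-fold, edgeR adjusted p = 7.25e-08) and -1.49 in Ts65Dn (SE 0.14, 0.356-fold, edgeR adjusted p = 2.41e-07), and 5.41% and 5.65% of the genes tested had a larger absolute log2 fold change. Between genotypes Vip gave -0.06 in the HIP (95% interval -0.50 to 0.38) and -0.19 in the EC (interval -0.38 to 0.01; unadjusted p = 0.0626, edgeR adjusted p = 0.294).

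Npy (ENSMUSG00000029819, chr6:49822710-49829507, plus strand), the gene of neuropeptide Y, was the second peptide without overlap between regions. In wt it spanned 28.4 to 49.3 CPM (median 36.3) in the HIP and 57.4 to 75.0 (median 70.5) in the EC. In Ts65Dn it spanned 24.9 to 50.3 (median 38.9) in the HIP and 64.9 to 75.5 (median 72.5) in the EC. The HIP differed from the EC by -0.82 in wt (SE 0.11, edgeR adjusted p = 1.54e-05) and -0.92 in Ts65Dn (SE 0.11, edgeR adjusted p = 5.72e-06). The genotypes overlapped in both regions, with -0.02 in the HIP (95% interval -0.37 to 0.34) and 0.06 in the EC (interval -0.09 to 0.22).

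Cck (ENSMUSG00000032532, chr9:121489824-121495694, minus strand), the gene of cholecystokinin, differed less. In wt it spanned 126.7 to 217.6 CPM (median 161.2) in the HIP and 156.8 to 291.1 (median 232.5) in the EC, and in Ts65Dn 125.9 to 251.6 (median 185.8) and 197.5 to 348.5 (median 263.2). The regions overlapped in both genotypes, yet the HIP was the lower one in each of the 12 mice. HIP over EC was -0.46 in wt (SE 0.11, edgeR adjusted p = 0.00169) and -0.50 in Ts65Dn (SE 0.11, edgeR adjusted p = 0.000978). Ts65Dn over wt was 0.20 in the HIP (95% interval -0.13 to 0.54) and 0.21 in the EC (interval -0.08 to 0.51), and the highest EC library was the one labelled Ts65Dn replicate 3, without which the EC value was 0.13 (edgeR adjusted p = 0.656).

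Reln (ENSMUSG00000042453, chr5:21884454-22344702, minus strand) encodes reelin, a secreted glycoprotein that guides neuronal layering in development. In wt it spanned 56.5 to 77.4 CPM (median 70.3) in the HIP and 104.8 to 229.1 (median 147.9) in the EC. In Ts65Dn it spanned 61.7 to 97.2 (median 77.1) in the HIP and 110.2 to 257.8 (median 144.3) in the EC. The regions did not overlap, and the EC libraries spread over a wider range than the HIP libraries. The log2 fold change of HIP over EC was -1.12 in wt (SE 0.17, edgeR adjusted p = 3.63e-05) and -0.95 in Ts65Dn (SE 0.17, edgeR adjusted p = 0.000178). Ts65Dn over wt was 0.21 in the HIP (95% interval -0.02 to 0.43; unadjusted p = 0.0655, edgeR adjusted p = 0.375) and 0.04 in the EC (interval -0.42 to 0.50).

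Lhx6 (ENSMUSG00000026890, chr2:36081953-36105408, minus strand) is the LIM-homeodomain factor that Pvalb and Sst cells keep into adulthood. Its levels were 12.5 to 17.7 CPM (median 14.9) in the wt HIP, 11.9 to 19.0 (median 17.3) in the Ts65Dn HIP, 18.9 to 23.0 (median 19.8) in the wt EC and 19.2 to 22.7 (median 21.4) in the Ts65Dn EC. The HIP lay below the EC without overlap in both genotypes. The difference was -0.44 in wt (SE 0.10, edgeR adjusted p = 0.00106) and -0.38 in Ts65Dn (SE 0.10, edgeR adjusted p = 0.00382). In wt, Lhx6 was one of 4 markers with every HIP library below every EC library, with Vip, Npy and Reln, against 15.9% of genes. Ts65Dn over wt was 0.13 in the HIP (95% interval -0.11 to 0.38) and 0.05 in the EC (interval -0.09 to 0.19).

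Pvalb (ENSMUSG00000005716, chr15:78191114-78206400, minus strand) encodes parvalbumin, the calcium buffer of fast-spiking basket and chandelier cells. It spanned 20.4 to 39.2 CPM (median 34.4) in the wt HIP and 23.2 to 45.2 (median 29.6) in the Ts65Dn HIP. In the EC it spanned 29.1 to 61.8 (median 40.5) in wt and 23.8 to 72.0 (median 30.8) in Ts65Dn. The highest Ts65Dn value in each region belonged to the library labelled Ts65Dn replicate 3. HIP over EC was -0.38 in wt (SE 0.18, edgeR adjusted p = 0.0757) and -0.18 in Ts65Dn (SE 0.18, edgeR adjusted p = 0.422), so Pvalb, like Gad1 and Gad2, was not called between regions in either genotype. Ts65Dn over wt was -0.05 in the HIP (95% interval -0.41 to 0.30) and -0.19 in the EC (interval -0.74 to 0.35). Without that library the values were -0.18 and -0.47, with edgeR adjusted p = 0.558 and 0.208, and HIP over EC in Ts65Dn was -0.07 (edgeR adjusted p = 0.788).

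Calb2 (ENSMUSG00000003657, chr8:110137502-110168210, minus strand) encodes calretinin, the calcium-binding protein of interneurons that contact other interneurons. It spanned 17.1 to 77.1 CPM (median 25.2) in the wt HIP and 8.31 to 36.0 (median 20.5) in the Ts65Dn HIP. In the EC it spanned 13.4 to 23.2 (median 15.6) in wt and 11.3 to 19.1 (median 17.2) in Ts65Dn. Calb2 had the largest coefficient of variation of the 10 in the HIP, 67.8% in wt and 63.7% in Ts65Dn, and the genotypes overlapped. HIP over EC was 0.80 in wt (SE 0.32, edgeR adjusted p = 0.0439), higher in 5 of 6 mice, and 0.21 in Ts65Dn (SE 0.33, edgeR adjusted p = 0.623). Without the library labelled Ts65Dn replicate 3 the Ts65Dn value was 0.0099 (edgeR adjusted p = 0.985). The wt call was lost without wt replicate 1, 2, 4 or 5, and without replicate 4 the value was 0.49 (edgeR adjusted p = 0.175). Ts65Dn over wt was -0.64 in the HIP (95% interval -1.63 to 0.35, edgeR adjusted p = 0.563). This HIP value was -0.21 without wt replicate 4 (edgeR adjusted p = 0.876). It was -0.86 without the library labelled Ts65Dn replicate 3 (edgeR adjusted p = 0.393).

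The wt replicate 4 HIP library, which held the highest Calb2, also had the highest summed level of 5 thalamus markers, 256.9 CPM against 69.5 to 94.7 in the other wt HIP libraries and 69.0 to 137.7 in the Ts65Dn HIP. Among them Tcf7l2 was at 18.7 CPM against 2.68 to 4.63 in the other wt HIP libraries and 2.51 to 14.5 in the Ts65Dn HIP. Gbx2, the least abundant, was at 0.982 against 0 to 0.214 and 0 to 0.450. Zic1, the most abundant there, was at 131.9 against 9.36 to 29.4 and 6.14 to 56.4. Ts65Dn replicate 3, with Tcf7l2 at 14.5 in the HIP, had Calb2 at 36.0 CPM, and replicate 1, with Tcf7l2 at 3.75, had 35.1. The sum of the 5 Cajal-Retzius cell markers was 30.8 CPM in wt replicate 4. It was 9.32 to 16.1 in the other wt HIP libraries and 9.23 to 17.2 in the Ts65Dn HIP. In the same order, Nhlh2 was at 12.7 against 1.16 to 3.42 and 2.03 to 5.23. Ebf3 was at 8.19 against 1.62 to 3.75 and 1.19 to 3.89. Lhx1 was at 1.02 against 0.338 to 0.635 and 0.173 to 0.876. Trp73 was at 8.53 against 4.38 to 8.23 and 5.16 to 9.38. Lhx5 was at 0.305 against 0.0374 to 0.280 and 0.146 to 0.420. Trp73 and Lhx5 thus reached higher levels in the Ts65Dn HIP than in wt replicate 4. The wt replicate 4 HIP library had the lowest HIP level of Gad1, Sst, Vip and Pvalb. The part of other tissue in the Calb2 values was not tested. Between genotypes, 0 of the 4 thalamus and 0 of the 4 Cajal-Retzius markers tested were called in the HIP.

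**Figure D4:**
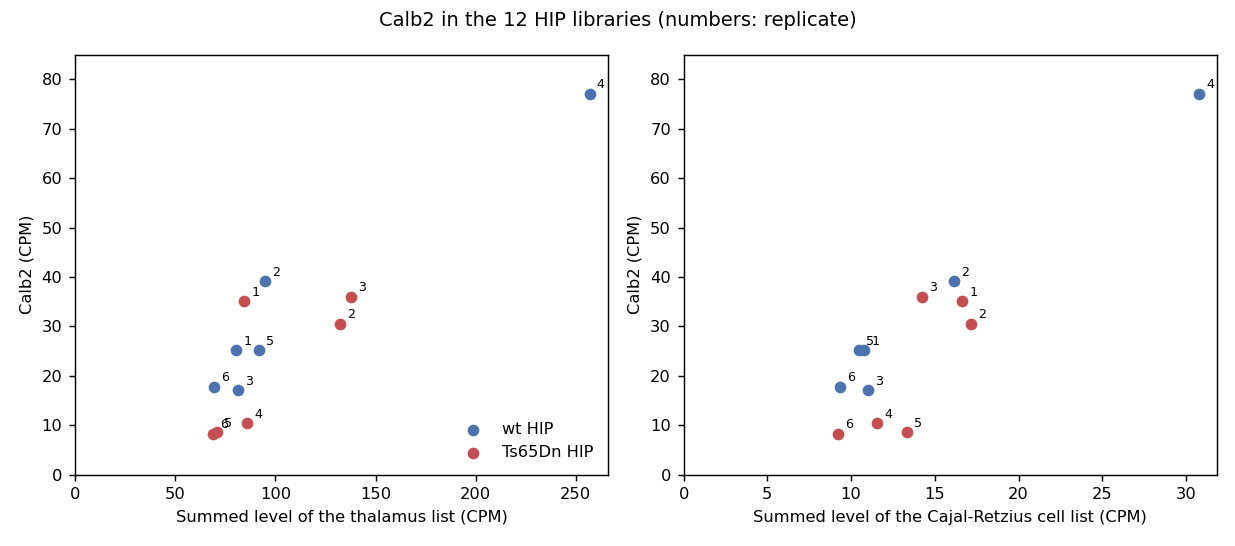
Calb2 level in CPM in the 12 HIP libraries against the summed CPM of 5 thalamus markers (left) and of 5 Cajal-Retzius cell markers (right), with linear axes from 0. Each point is a library and the digit beside it is its replicate number; wt replicate 4, at 77.1 CPM, stands apart on both panels.

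**Figure D5:**
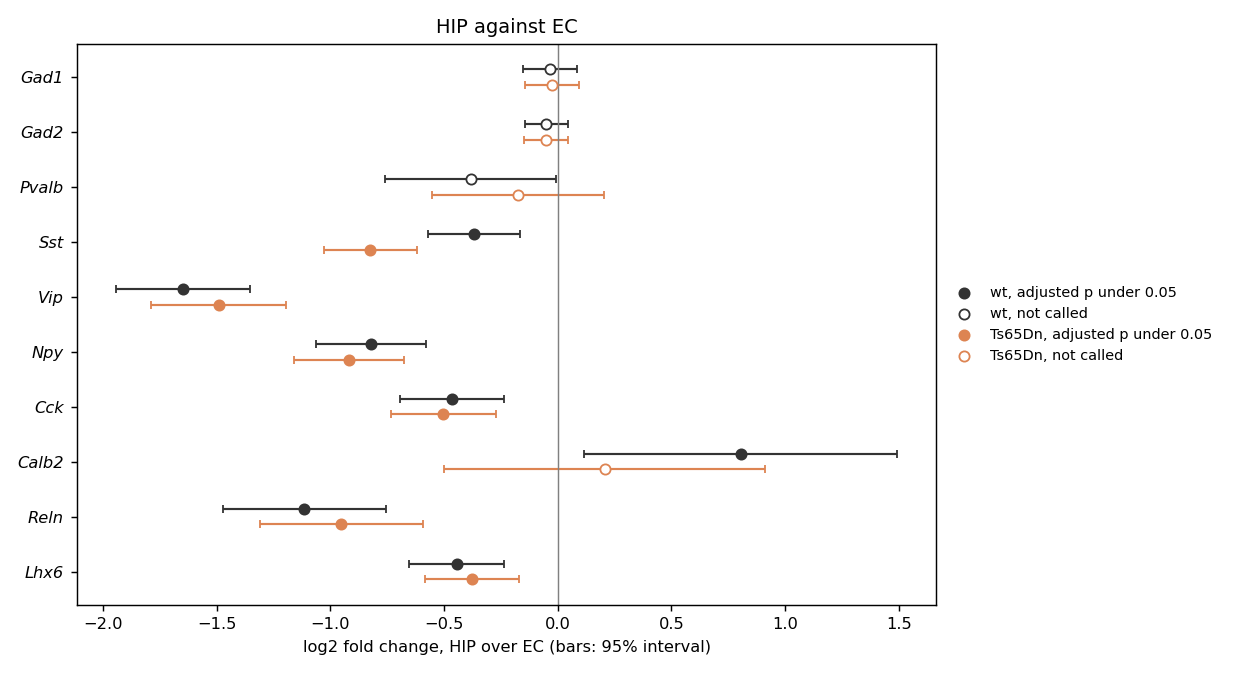
Log2 fold change of HIP over EC for the 10 markers in wt (black) and Ts65Dn (orange) mice, with 95% intervals from edgeR as bars. Filled points were called, namely 7 markers in wt and 6 in Ts65Dn, and the intervals of Gad1 and Gad2 are the narrowest and span 0.

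Levels of different genes were compared per kilobase of annotated exon, as a description. In the wt HIP the order of mean CPM per kb was Sst (209.9), Cck (127.3), Npy (68.2), Gad1 (53.5), Gad2 (32.8), Pvalb (31.6), Calb2 (19.3), Vip (6.06), Lhx6 (3.13) and Reln (2.86). Neighbours overlapped in range from Sst to Cck, Npy to Gad1, Gad2 to Pvalb, Pvalb to Calb2, Vip to Lhx6 and Lhx6 to Reln. In the wt EC the order was Sst (265.1), Cck (176.4), Npy (119.1), Gad1 (54.7), Pvalb (41.4), Gad2 (34.0), Vip (18.4), Calb2 (9.68), Reln (6.40) and Lhx6 (4.25). There Sst did not overlap with Cck, nor Npy with Gad1, Gad2 with Vip, or Vip with Calb2. The order changed between regions for Vip, which stood above Calb2 in the EC and below it in the HIP, without overlap in wt. Gad2 and Pvalb also changed places, as did Lhx6 and Reln, but their ranges overlapped in both regions. In Ts65Dn mice the order was that of wt in each region.

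Transcription factors of interneurons were read from a list of 15, which also held Adarb2, the gene of an RNA-binding protein. Between genotypes 0 of the 15 tested in the HIP and 0 of the 14 tested in the EC were called, with medians of 0.06 and 0.03. Nkx2-1, the factor that specifies the medial ganglionic eminence, passed the filter on low counts in the HIP alone and is left out of the counts between regions. Of the 14 that passed in both regions, 1 was higher in the wt HIP, against 30.3% of genes, and 7 lower, against 28.3%. The median was -0.30 (all genes 0.01). The 1 higher gene was Adarb2, which is not a transcription factor, at 0.94 (SE 0.06, edgeR adjusted p = 3.61e-09). Among the called genes the largest fall was in Nr2f2, which encodes COUP-TFII, at -0.90 (SE 0.16, edgeR adjusted p = 0.000182).

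Other markers of interneuron subtypes formed a list of 24. In the HIP 0 of the 23 tested were called between genotypes, against 1.04% of genes. In the EC 1 was higher and 2 lower of 24, against 2.50% of genes called in either direction. Calb1, which encodes calbindin and is also made by many excitatory cells, fell by 0.31 on the log2 scale in the Ts65Dn EC (SE 0.05, edgeR adjusted p = 0.00922) with no overlap between genotypes, against 2.46% of genes without overlap. Erbb4, the neuregulin receptor of interneurons, fell by 0.28 (SE 0.07, edgeR adjusted p = 0.0430), and its genotypes overlapped. Elfn1, a postsynaptic organiser of inputs to Sst cells, rose by 0.26 (SE 0.06, edgeR adjusted p = 0.0412) with no overlap. Values of list genes under the alternatives are not given here. The list median was 0.08 in the EC and 0.00 in the HIP. Of the 23 that passed in both regions, 4 were higher in the wt HIP, against 30.3% of genes, and 11 lower, against 28.3%. Their median was -0.27. Among the called genes the largest fall was in Lamp5, which marks neurogliaform cells only among interneurons, at -2.35 (SE 0.13). Crh, corticotropin-releasing hormone, followed at -1.97 (SE 0.15). The largest rises were in Sncg, which encodes gamma-synuclein, at 1.46 (SE 0.24), and Acan, the aggrecan core protein of perineuronal nets, at 0.80 (SE 0.11).

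Receptors for the products of these markers formed a list of 15. Between genotypes 0 of the 13 tested in the HIP were called, against 1.04% of genes, and 1 of the 14 tested in the EC, against 2.50%. The EC gene was Vldlr, a reelin receptor, which fell by 0.21 on the log2 scale (SE 0.05, edgeR adjusted p = 0.0316). Of the 13 that passed in both regions, 7 were higher in the wt HIP, against 30.3% of genes, and 4 lower, against 28.3%. Their median was 0.12 (all genes 0.01). Npy2r, a receptor of neuropeptide Y, was higher in the HIP at 2.90 (SE 0.11), and Sstr4, a somatostatin receptor, at 1.01 (SE 0.10), while their peptides Npy and Sst were lower there. Cckbr, the main brain receptor of cholecystokinin, was lower in the HIP at -2.76 (SE 0.18), and Sstr2, another somatostatin receptor, at -1.44 (SE 0.12).

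Markers of other cell types also differed between regions and in a few cases between genotypes. In wt mice, 5 of 5 oligodendrocyte markers were higher in the HIP, against 30.3% of genes, and 5 of 5 microglia markers lower, against 28.3%. Of the choroid plexus, thalamus and Cajal-Retzius markers, 5 listed for each, 2, 3 and 2 passed the filter on low counts in both regions, and these were higher in the HIP, while a further 3, 1 and 2 passed in the HIP alone and are not counted. The summed level of the 5 choroid plexus markers spanned 52.1 to 5072 CPM over the HIP libraries but 7.96 to 48.8 over the EC libraries. Oligodendrocyte sums spanned 5705 to 9010 CPM (HIP) and 1248 to 2527 CPM (EC). The sum of 8 glutamatergic markers spanned 4841 to 7185 CPM (HIP) and 5941 to 6932 CPM (EC), with 2 of the 8 higher and 4 lower in the wt HIP, and of 5 astrocyte markers 3 were higher and 2 lower. The part of these differences in tissue make-up in the region differences of the markers was not tested. Between genotypes, 1 of 5 microglia markers was called in each region, where 1.04% (HIP) and 2.50% (EC) of all genes were. It was P2ry12, a microglial receptor, which fell by 0.27 on the log2 scale in the HIP (edgeR adjusted p = 0.0422) and by 0.45 in the EC (edgeR adjusted p = 0.0226). Of 8 striatal markers, Drd2 rose by 1.56 in the Ts65Dn EC (edgeR adjusted p = 0.0254), as did Pde10a, which is in the triplicated part of Mmu17, by 0.68 (edgeR adjusted p = 0.0309). The summed level of the other 7 spanned 165.5 to 247.7 CPM in the Ts65Dn EC and 175.6 to 204.1 in the wt EC. The library at 247.7, Ts65Dn replicate 6, had the highest Gad1 (458.2 CPM) and Gad2 (229.8 CPM) of the Ts65Dn EC. The library at 165.5, Ts65Dn replicate 4, had Gad1 at 396.7 and Gad2 at 209.6. The part of this sum in the Gad1, Gad2 and Sst values of the EC was not tested.

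The genes whose deviations from their group means most resembled those of each marker over the 24 libraries are given by Pearson's r of log2 CPM, as a description, since libraries share depth and the regions of a mouse share an animal. Pvalb went most closely with Syt2, a synaptotagmin of fast-spiking terminals, at r = 0.94, then with Kcnab3 at 0.92 and Gabrd at 0.90. Npy had Cort, the gene of cortistatin, a peptide related to somatostatin, at 0.80 behind Ppp2r5c at 0.81, and Gad2 had Dlx6os1 at 0.79 behind Xk at 0.80 and Pgm2l1 at 0.79. Sst was most like Vgf, a secretory-granule protein, at 0.88, and Cck most like Jund at 0.92. For Calb2 it was Cdh26 at 0.90, for Reln Slc39a6 at 0.87, for Lhx6 Mapk11 at 0.86, for Vip C730002L08Rik at 0.84 and for Gad1 Spats2 at 0.83.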

How the data were processed

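RNA-Seq of the HIP and the EC of 6 Ts65Dn and 6 wt mice was analysed, 24 libraries in all, grouped by the sample labels. The authors aligned 50 bp single-end reads with Hisat2 to GRCm38 (Ensembl release 99) and deposited raw counts per gene from HTSeq-count, not normalized, and the labels name bcl2fastq 2.17.1.14. The strand setting of the counting is not given in the sources used here, and genes that overlap the markers held at most 8 counts in any library. The library kit is a stranded total RNA kit in the methods and a stranded mRNA kit in the labels. The deposited tables of the authors' own comparisons (DESeq2 means, log2 fold changes and p-values, and FCROS ratios and scores) were not used, and 0 columns of counts were left out.

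Genes were tested with edgeR 4.0.16 (R 4.3.3), with filterByExpr, TMM and quasi-likelihood tests, and Benjamini-Hochberg adjusted p-values over all genes. Genotypes were compared within a region, and regions and the difference of the genotype effects in 1 fit with a term for each mouse. Deviations from group means correlated over 0.1 between the regions of the same mouse in 12 of 12 mice, the titles naming the animal in each. Exon lengths and positions came from GENCODE vM21 on the same build, which held 99.6% of the gene identifiers, and promoters from RefSeq. Alternatives were DESeq2 1.42.0, its size factors in edgeR, no filter or at least 10 counts in every library, the replicate number as a block, GC content and length removed, no mouse term, and leaving out each mouse. The scripts were tested on simulated data. Named were the 10 markers, of each list the genes called between genotypes (at most 4 a region) and, between regions in wt, the 2 largest rises and falls, while lists of other cell types are given by counts between regions. Single genes that the rule would name in some lists are not reported here, but they are in the counts and medians, which between regions cover the list genes that passed the filter in both regions. The markers and lists were chosen with earlier results of these data known.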

Additional observations from a re-analysis of the deposited data

Results flagged for a closer look

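Of the 40 groups of 6 libraries that the 10 markers give, 2 held a library far from the others by Dixon's test, which chance alone does in about 1 of 20 groups. Calb2 was at 77.1 CPM in the wt replicate 4 HIP library, and the next highest of that group was at 39.2. Reln was at 257.8 CPM in the Ts65Dn replicate 4 EC library, and the next highest was at 160.0. Without that mouse, Ts65Dn over wt for Reln in the EC went from 0.04 to -0.15 on the log2 scale, and HIP over EC in Ts65Dn from -0.95 to -0.75. The cause of these values was not tested.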

How the results depend on the processing

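The 6 markers lower in the HIP kept that call under each of the 17 alternatives in both genotypes, the left-out mice among them. The Calb2 call in wt was lost with DESeq2 (0.77, adjusted p = 0.0687) and without wt replicate 1, 2, 4 or 5. Pvalb became called in wt with no filter on low counts and without wt replicate 6 (-0.54, edgeR adjusted p = 0.0144). For the genotype comparisons, no marker was called in the HIP under any of the 18 alternatives, and in the EC 1 was called, Sst with DESeq2. The difference of the genotype effects called 1 marker, Sst (edgeR adjusted p = 0.00485), and 37 genes with no filter on low counts, and 0 of either under the other alternatives. The number of genes called in the HIP went from 181 to 662 with DESeq2 and 76 with GC content and length removed, and to between 54 and 318 with a mouse left out, where all but Ts65Dn replicates 2 and 5 moved it by over 1.5 times (318 without Ts65Dn replicate 3). In the EC it went from 426 to 1141 with DESeq2, 275 with no filter and 133 with GC content and length removed, and to between 90 and 685 with a mouse left out, where all but wt replicate 2 and Ts65Dn replicates 3 and 5 moved it that far. With GC content and length removed, 48 were higher and 28 lower in the HIP, against 94 and 87, and 78 and 55 in the EC, against 196 and 230. The cause of these shifts was not tested. Wt and Ts65Dn mice share only replicate numbers: with the replicate number as a block, 29 HIP genes and 36 EC genes were called, 0 markers among them, deviations correlated over 0.1 in 2 of 6 HIP and 1 of 6 EC pairs, and few libraries correlated best with their own number (1 of 6 wt HIP, 0 of 6 Ts65Dn HIP). A marker that was not called can differ within its interval.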

Other observations

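The deviations of the 10 markers from their group means were also compared with each other over the 24 libraries, as a description with no test, in libraries that share depth and, for the regions of a mouse, the animal. The highest pair was Sst with Vip (r = 0.74), followed by Sst with Lhx6 (r = 0.63) and Gad1 with Vip (r = 0.58). The lowest was Npy with Calb2 (r = -0.71), then Calb2 with Lhx6 (r = -0.53) and Pvalb with Reln (r = -0.51).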
